A study of Homo sapiens with 6 samples.

Results

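Microtubules are hollow filaments built from heterodimers of alpha and beta tubulin, and human cells express several genes for each subunit, called isotypes, whose proteins differ mainly at their acidic carboxyl ends. The genes described here are the 10 alpha and beta tubulin isotypes TUBA1A, TUBA1B, TUBA1C, TUBA4A, TUBB, TUBB2A, TUBB2B, TUBB3, TUBB4B and TUBB6. They were chosen by name, with earlier results of these data known. All 10 were present among the 15651 genes of the deposited table. Tubulin polypeptides are folded by the chaperonin CCT with prefoldin and assembled by the cofactors TBCA to TBCE. Cells also adjust the amount of tubulin mRNA to the amount of free tubulin protein, a control called autoregulation, in which TTC5 binds the start of the nascent tubulin chain and recruits SCAPER and the CCR4-NOT deadenylase to the translating mRNA.

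The RNA was from MDA-MB-231, an established human triple-negative breast cancer cell line, in 3 libraries of cells given the solvent DMSO and 3 of cells given BRL-50481, an inhibitor of the cyclic AMP phosphodiesterase PDE7A. The comparison asked which transcripts differ when PDE7A is inhibited. One label field gives 5 µM BRL-50481 for 48 h and another, like the study's methods, 50 µM for 72 h, and the sources also differ on whether polyadenylated RNA was selected or ribosomal RNA removed. All samples come from 1 cell line, and the methods call the replicates biological.

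The values are normalized read counts, that is, the reads of a gene scaled by the size factor of their library. They summed to 32547451, 32763957 and 32653496 in the DMSO libraries and to 30956797, 30999479 and 31073526 in the BRL-50481 libraries. The total was thus lower in every treated library. The spread of a library around its group mean on the log2 scale, over 12251 genes with a mean of at least 50, was an SD of 0.141 in DMSO replicate 1, 0.119 and 0.0964 in the other DMSO libraries and 0.0791 to 0.0832 in BRL-50481, so DMSO replicate 1 stood farthest from its group. VIM, CD44 and AXL, which mark this mesenchymal line, had normalized counts of at least 30982 in every library, and PGR was at most 7.75. ESR1 was not among the genes listed, so it has no value here. ERBB2 (1606 to 1979) and EPCAM (674 to 773), set down as markers that should be low or absent, were not at 0, and CDH1 was between 31.7 and 105. VIM, CD44, AXL, ERBB2 and CDH1 were called higher in BRL-50481 (log2 fold changes 0.58, 0.47, 0.12, 0.19 and 1.39) and EPCAM lower (-0.16), and their part in the tubulin results was not tested. PDE7A itself was at 405 to 409 normalized counts in DMSO and 261 to 341 in BRL-50481, a log2 fold change of -0.45 (SE 0.103, adjusted p = 0.00199). As an inhibitor acts on the enzyme and not on its mRNA, this value does not check the treatment.

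The isotypes have closely related coding sequences, so the sequences are shown first. Between 2 alpha genes, 85.0% to 97.3% of aligned coding bases were identical, and between 2 beta genes 81.3% to 98.2%, whereas between an alpha and a beta gene it was 54.3% to 56.3%. The spliced coding starts of 4 members follow (hg38, GENCODE transcripts, 30 bases each, 5′ to 3′), with the first 12 bases in capitals because they encode the stretch that autoregulation reads.
TUBA1B: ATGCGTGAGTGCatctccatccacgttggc
TUBA4A: ATGCGTGAATGCatctcagtccacgtgggg
TUBB: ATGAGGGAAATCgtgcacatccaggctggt
TUBB2A: ATGCGCGAGATCgtgcacatccaggcgggc
The first 12 bases came in 2 versions among the 4 alpha genes and in 4 versions among the 6 beta genes. Within each family all versions encode the same amino acids. In the alpha genes the first coding exon holds only the 3 bases of the start codon, at chr12:49131298-49131300 in TUBA1B and at chr2:219253856-219253858 in TUBA4A, both on the minus strand.

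The isotype-specific part lies at the other end of the coding sequence. The last 60 coding bases before the stop codon follow for 5 beta genes, with the last codon in capitals.
TUBB: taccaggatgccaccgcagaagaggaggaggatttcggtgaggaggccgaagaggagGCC
TUBB2A: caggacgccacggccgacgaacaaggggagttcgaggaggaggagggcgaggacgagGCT
TUBB2B: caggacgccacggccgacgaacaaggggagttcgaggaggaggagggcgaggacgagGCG
TUBB3: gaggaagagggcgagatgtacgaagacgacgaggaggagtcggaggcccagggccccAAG
TUBB6: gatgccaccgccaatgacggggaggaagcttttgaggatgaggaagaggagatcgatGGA
TUBB2A and TUBB2B differed at 1 of these 60 bases. Since reads of 76 bases were counted, the share of 76-base windows of each transcript that occur once in hg38 (alternate loci left out) was computed. It was 99.6% for TUBB6, 96.7% for TUBA4A, 94.0% for TUBB4B, 92.9% for TUBB3, 89.6% for TUBB, 82.2% for TUBA1C and 68.9% for TUBA1A, but 52.0% for TUBA1B, 47.6% for TUBB2B and 40.5% for TUBB2A. With alternate loci left out, the levels of the last 3 are therefore the least certain. TUBB2A and TUBB2B shared 55.9% and 46.7% of their windows with another member, and by its default htseq-count leaves out reads that align to several places. TUBB lies in a region with alternate loci in hg38, and 0% of its within-exon windows occur once when those loci are counted. TUBB still had normalized counts of 72401 to 82219, and the effect of those loci on its counts was not tested.

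By the main test, tubulin transcripts fell or were not called, and none was called higher. Of the 10 members, all of which passed the filter on low values, 6 had lower normalized counts in BRL-50481 at an adjusted p under 0.05 by limma (3 of 4 alpha and 3 of 6 beta genes), 0 were higher and 4 were not called. At an unadjusted p under 0.05 by limma the numbers were 7 lower and 0 higher. Over all 15246 genes tested, 29.8% were called lower and 28.9% higher. In 8 members every BRL-50481 library was below every DMSO library, which was true of 32.3% of all genes tested, and in 0 members was every BRL-50481 library above, which was true of 31.9%. The median log2 fold change was -0.21 over the members and 0.01 over all genes tested. In these bulk RNA samples, fewer cells of a kind and less RNA per cell cannot be told apart. Without DMSO replicate 1, which had the lowest value of its group in 10 of 10 members, 8 members were called lower and 0 higher. In that setting 4912 of all 15125 genes tested were called lower and 4868 higher. Under quantile normalization 5 members were called lower and 1 higher (TUBB), where 4448 of all 15246 genes tested were lower and 4330 higher. With the length and GC correction 8 members were called lower and 1 higher (TUBB6). In that setting lower calls were also more frequent over all genes, at 5485 of 14734 tested, with 4193 higher.

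**Figure D1:**
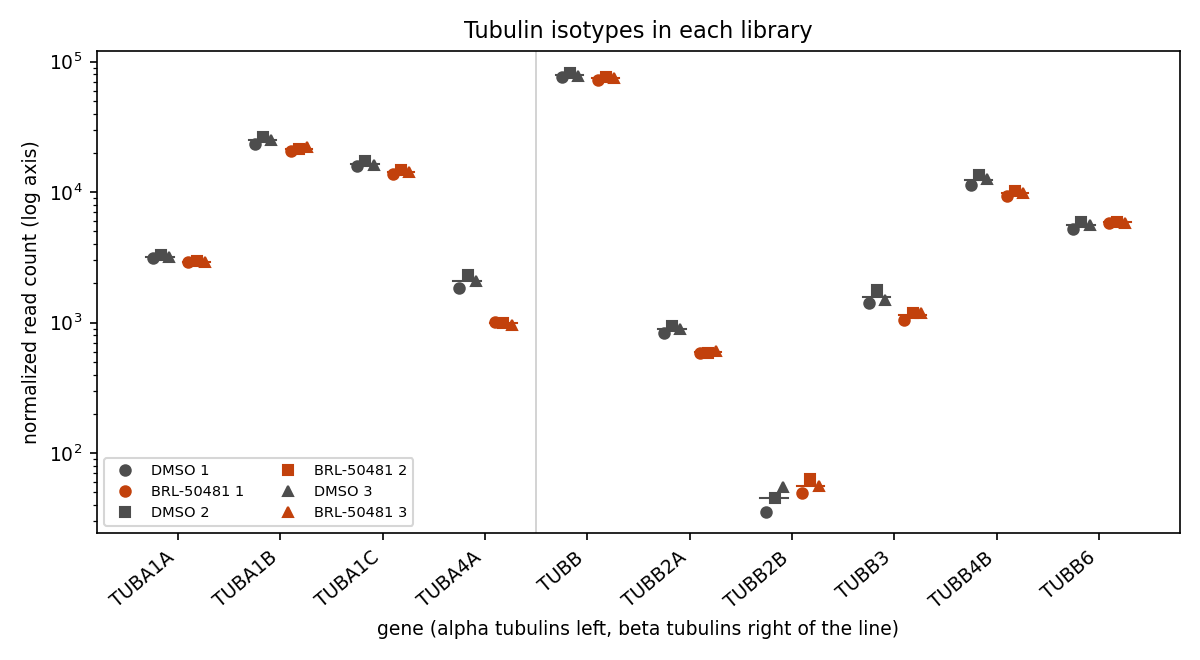
Normalized read counts (log axis) of the 10 tubulin genes in each of the 3 DMSO (grey) and 3 BRL-50481 (orange) libraries, where marker shapes are replicate numbers and lines are group means. TUBB is the highest in both groups by count, between 72401 and 82219, TUBA4A shows the widest gap between groups, and the groups overlap only for TUBB2B and TUBB6.

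TUBA4A, an alpha isotype known for its expression in platelets, brain and muscle, fell the most of the members. It lies at chr2:219249710-219277902 on the minus strand (hg38, GENCODE 44). Its normalized counts were 1852, 2324 and 2092 in DMSO and 1004, 994 and 958 in BRL-50481. The 3 treated libraries lay close together and all far below the lowest control. The mean fell by 52.8%, with a log2 fold change of -1.08 (SE 0.0764, 95% confidence interval -1.24 to -0.91, adjusted p = 1.18e-07). Over all genes, 385 of the 4546 called lower had a log2 fold change at least as far below 0. When any 1 library was left out, the value lay between -1.16 and -0.998. An opposite-strand gene, STK16, overlaps exons of TUBA4A, and the authors counted by strand.

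TUBA1B and TUBA1C, the main alpha isotypes of most dividing cells, fell by smaller amounts. TUBA1B (chr12:49127782-49131397, minus strand) had normalized counts of 23303, 26431 and 24932 in DMSO and 20481, 21433 and 21992 in BRL-50481. TUBA1C (chr12:49188736-49274600, plus strand) had 15759, 17358 and 16107 in DMSO and 13750, 14888 and 14180 in BRL-50481. The groups did not overlap for either gene, although the gap between the nearest libraries was smaller than the range within DMSO. The log2 fold change was -0.22 for TUBA1B (SE 0.0525, adjusted p = 0.00256) and -0.20 for TUBA1C (SE 0.0506, adjusted p = 0.00403). Under quantile normalization TUBA1B was not called (-0.08, adjusted p = 0.139, the highest over the alternatives, with 9.34e-09 the lowest). TUBA1A (chr12:49184686-49189080, minus strand), the alpha isotype that is abundant in developing neurons, had normalized counts of 3117, 3279 and 3157 in DMSO and 2899, 2989 and 2909 in BRL-50481. Its groups did not overlap, but its log2 fold change of -0.12 (SE 0.0494, 95% confidence interval -0.23 to -0.01) had an adjusted p of 0.0538 and was not called. It was called without DMSO replicate 1 (-0.13, adjusted p = 0.0086), with the length and GC correction (-0.10, adjusted p = 0.0227) and at a minimum mean of 20 (-0.12, adjusted p = 0.0486), and was farthest from a call under quantile normalization (-0.06, adjusted p = 0.300).

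Among the beta genes, TUBB2A fell the most. It lies at chr6:3153497-3157544 on the minus strand, beside its close copy TUBB2B at chr6:3223324-3231730, and both are best known from neurons. TUBB2A had normalized counts of 828, 935 and 898 in DMSO and 586, 590 and 605 in BRL-50481, with no overlap, and its log2 fold change was -0.58 (SE 0.0714, adjusted p = 1.51e-05). TUBB2B had 35.7, 45.1 and 55.2 in DMSO and 49.3, 63.5 and 56.2 in BRL-50481. Its groups overlapped, and its log2 fold change of 0.32 (SE 0.210, 95% confidence interval -0.13 to 0.78, adjusted p = 0.205) was not called and ranged from 0.17 to 0.47 when 1 library was left out. TUBB2B was by far the least counted member and had the widest interval.

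TUBB3, the beta isotype used as a neuronal marker and found at raised levels in many carcinomas, also fell. It lies at chr16:89921392-89938761 on the plus strand, where a read-through gene shares its exons on the same strand, so reads of the 2 genes could not be separated. Its normalized counts were 1408, 1774 and 1494 in DMSO and 1047, 1184 and 1194 in BRL-50481. TUBB4B (chr9:137241287-137243707, plus strand), a widely expressed isotype that is also part of cilia, had 11340, 13493 and 12514 in DMSO and 9367, 10159 and 9913 in BRL-50481. No treated library reached the lowest control for either gene. The log2 fold change was -0.44 for TUBB3 (SE 0.0854, adjusted p = 0.000592) and -0.34 for TUBB4B (SE 0.0609, adjusted p = 0.00034).

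The remaining beta genes were not called. TUBB (chr6:30717435-30725538, plus strand), the main beta isotype of dividing cells, had normalized counts of 76741, 82219 and 77992 in DMSO and 72401, 76479 and 74452 in BRL-50481. The highest treated library was just below the lowest control. Its log2 fold change was -0.09 (SE 0.0456, 95% confidence interval -0.18 to 0.01, adjusted p = 0.127), and its direction depended on the scaling, since it was 0.16 (adjusted p = 0.00222) under quantile normalization and -0.11 (adjusted p = 0.00628) without DMSO replicate 1, with adjusted p from 0.00222 to 0.339 over the alternatives. TUBB6 (chr18:12307669-12344320, plus strand), whose coding sequence is 81.3% identical to that of TUBB, had 5247, 5938 and 5564 in DMSO and 5828, 5925 and 5818 in BRL-50481. All 3 treated libraries lay inside the range of the controls. Its log2 fold change was 0.07 (SE 0.0524, 95% confidence interval -0.04 to 0.18, adjusted p = 0.264), and it was called higher (0.11, adjusted p = 0.00499) with the correction for transcript length and GC content, against up to 0.573 under the other alternatives.

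**Figure D2:**
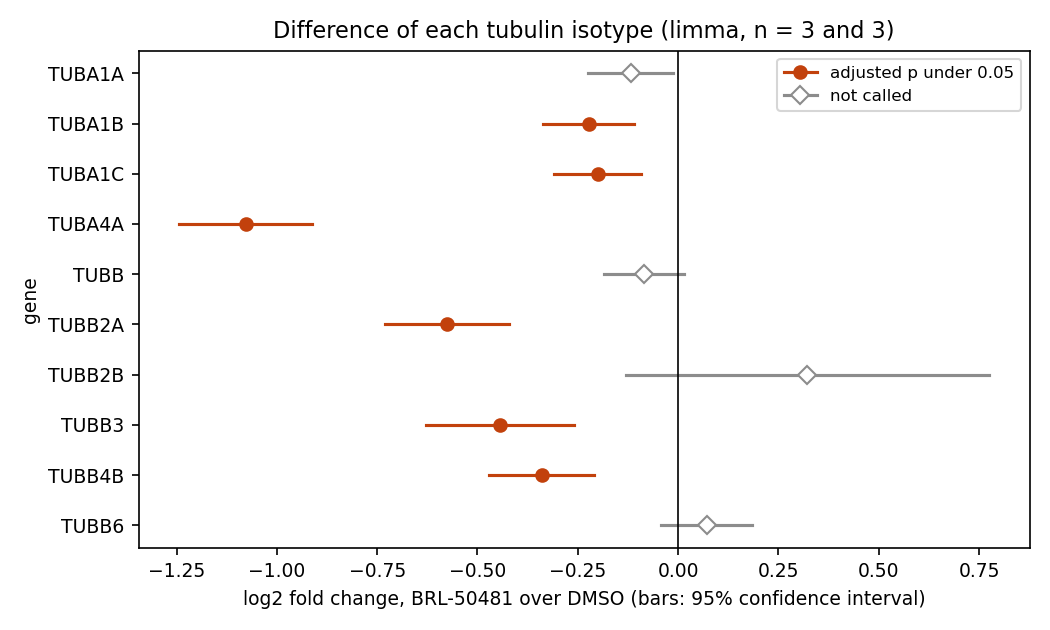
Log2 fold change of each tubulin gene, BRL-50481 over DMSO, with bars for the 95% confidence interval of limma (3 libraries in each group) and open diamonds for genes that were not called. The 6 called genes lie to the left of 0, from -0.20 for TUBA1C to -1.08 for TUBA4A, and TUBB2B has the widest interval.

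Within DMSO, the members kept nearly the same order of libraries. DMSO replicate 1 had the lowest value of its group in 10 of 10 members, against 41.6% of all genes tested, and DMSO replicate 2 the highest in 9, against 36.7%. In BRL-50481, replicate 1 was the lowest in 8 members (36.2% of all genes), and the highest was replicate 2 in 6, replicate 3 in 3 and replicate 1 in 1. The share of an isotype within its family in 1 library does not depend on the size factor. Shares were computed from normalized counts per kilobase of transcript. They must sum to 100% in each family, so they are not independent of each other.

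In alpha tubulin, TUBA1B made up 63.6% ± 0.429 (SD, n = 3) of the normalized counts per kilobase in DMSO and 64.2% ± 0.821 in BRL-50481, and TUBA1C 24.2% ± 0.398 and 24.8% ± 0.623. The groups overlapped for both. The share of TUBA1A was 8.22%, 7.69% and 7.89% in DMSO and 8.81%, 8.63% and 8.39% in BRL-50481, higher in every treated library. The share of TUBA4A was 3.99%, 4.45% and 4.26% in DMSO and 2.49%, 2.34% and 2.25% in BRL-50481, lower in every treated library, a difference of -1.87 percentage points. The exact two-sided permutation test gave p = 0.1 for TUBA1A and for TUBA4A, the smallest p that 3 against 3 libraries allow, and 0.143 after adjustment over the 10 shares compared.

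In beta tubulin, the most abundant gene gained share. TUBB made up 72.8%, 70.9% and 71.4% of the normalized counts per kilobase in DMSO and 74.0%, 73.9% and 73.7% in BRL-50481. TUBB6 went from 6.66%, 6.85% and 6.82% to 7.98%, 7.66% and 7.71%. Both were higher in every treated library, although neither gene was called by its own level. TUBB4B held 17.3%, 18.7% and 18.4% in DMSO and 15.4%, 15.8% and 15.8% in BRL-50481, and was lower in every treated library. The shares of TUBB3 (2.08% ± 0.153 against 1.67% ± 0.0839) and TUBB2A (1.25% ± 0.0288 against 0.917% ± 0.0259) were also lower without overlap, and that of TUBB2B (0.0537% ± 0.0112 against 0.0730% ± 0.00711) overlapped. Each of the 5 separated beta shares had an exact permutation p = 0.1 (adjusted p = 0.143), the smallest that the design allows.

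**Figure D3:**
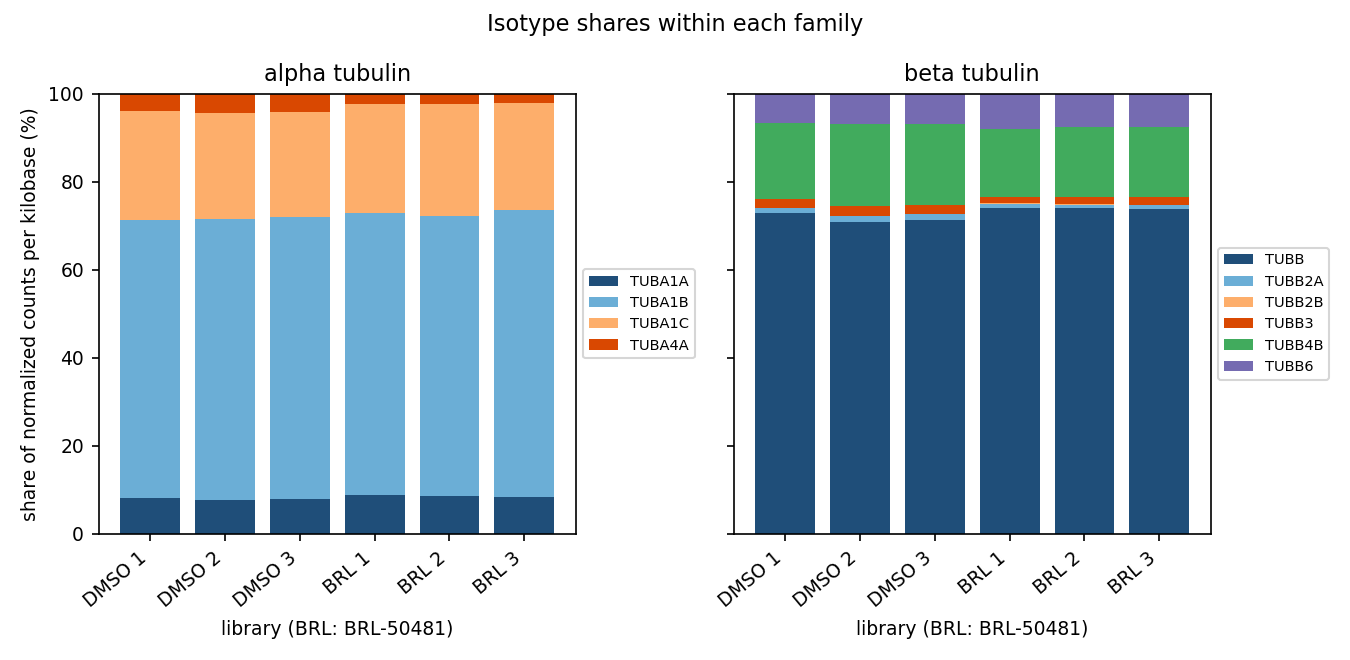
Share of each isotype in the normalized counts per kilobase of its family, as stacked bars for each of the 6 libraries (alpha tubulin left, beta tubulin right; axis from 0 to 100%). TUBA1B and TUBB take most of their families in every library, TUBA4A narrows from 4.23% to 2.36% and TUBB4B from 18.2% to 15.7% between the group means, and TUBB2B is too small to be seen.

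Per kilobase, the order of the isotypes in DMSO was TUBB (31405 ± 1141 normalized counts per kilobase, SD, n = 3), TUBA1B (15297 ± 962), TUBB4B (7965 ± 690), TUBA1C (5812 ± 298), TUBB6 (2971 ± 184), TUBA1A (1904 ± 50.4), TUBA4A (1020 ± 115), TUBB3 (914 ± 112), TUBB2A (549 ± 33.7) and TUBB2B (23.6 ± 5.06). TUBA4A and TUBB3 were within 1 SD of each other. In BRL-50481 the order was the same except for this pair, with TUBB3 at 669 ± 48.1 above TUBA4A at 481 ± 11.9. Summed over the family, alpha tubulin was at 24034 ± 1410 in DMSO and 20383 ± 607 in BRL-50481, and beta tubulin at 43827 ± 2131 and 40061 ± 1137, in the same unit. The beta to alpha ratio was 1.85, 1.81 and 1.81 in DMSO and 1.98, 1.99 and 1.93 in BRL-50481, so it was higher in every treated library. Per kilobase of windows that occur once, the order in DMSO differed, since TUBB2A (1421) then stood above TUBA4A (1094) and TUBB3 (1028), and TUBA1B was at 30841. The sums rest on the chosen transcript lengths and on how reads shared by close copies were counted.

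Ratios between 7 pairs of isotypes were also compared within libraries. The log2 ratio of TUBA4A to TUBA1B was -3.58 ± 0.0727 (SD, n = 3) in DMSO and -4.43 ± 0.0853 in BRL-50481, a difference of -0.86. That of TUBB2B to TUBB2A differed by 0.91, that of TUBB3 to TUBB by -0.36, that of TUBB4B to TUBB by -0.26 and that of TUBB6 to TUBB by 0.16. In these 5 pairs the groups did not overlap, with an exact two-sided permutation p = 0.1 each and 0.14 after adjustment over the 7 pairs. TUBA1A to TUBA1B differed by 0.10 (exact p = 0.2, adjusted p = 0.233) and TUBA1C to TUBA1B by 0.02 (exact p = 0.7, adjusted p = 0.7), and in both pairs the groups overlapped. For these 2 pairs the difference was within the range of the libraries.

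The promoters of the 2 members that fell the most are given because PDE7A breaks down cyclic AMP, whose transcription factor CREB binds the cyclic AMP response element (CRE). The windows are the 250 bases before the RefSeq start (GRCh38.p14), at chr2:219253919-219254168 for TUBA4A and chr6:3157545-3157794 for TUBB2A, both on the minus strand and written 5′ to 3′ along the gene. Capitals mark every match on either strand to CCAAT, to the CRE TGACGTCA or its shorter core TGACG, and to the GC box GGGCGG.
TUBA4A: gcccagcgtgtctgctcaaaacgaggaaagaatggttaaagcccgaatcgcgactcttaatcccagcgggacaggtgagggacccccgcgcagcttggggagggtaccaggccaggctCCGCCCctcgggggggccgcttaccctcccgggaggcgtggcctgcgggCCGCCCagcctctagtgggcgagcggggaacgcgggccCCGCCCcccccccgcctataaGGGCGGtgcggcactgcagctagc
TUBB2A: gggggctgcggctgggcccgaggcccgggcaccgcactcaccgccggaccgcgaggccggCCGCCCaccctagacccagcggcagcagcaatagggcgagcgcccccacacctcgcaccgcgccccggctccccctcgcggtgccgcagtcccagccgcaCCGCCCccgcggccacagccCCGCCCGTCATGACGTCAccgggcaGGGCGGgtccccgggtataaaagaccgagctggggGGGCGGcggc
The TUBB2A window held a full CRE that begins 60 bases before the start, next to a further TGACG core on the other strand that begins 65 bases before it and overlaps a GC box by its first base. A full CRE was found in 1.65% of all 35116 RefSeq windows of this length and in 1 of the 15 windows of the members, several of which have more than 1 start. The TUBA4A window held 4 GC boxes and no match to CCAAT, CRE or the core. TGACG cores were found in 4 of the 15 member windows, in TUBB, TUBB2A, TUBB2B and TUBB4B, against 21.2% of all windows. CCAAT was found in 9 of 15 against 32.0%, and GC boxes in 9 of 15 against 42.6%. The overlapping TUBA1C windows hold the same CCAAT site. The heat shock element core GAANNTTC was also searched and is not marked in capitals. It was found in 2 of the 15 member windows, which are the overlapping windows of TUBA1C, against 5.78% of all windows. By gene, CCAAT was found in 7 of the 10 members and GC boxes in 8. Of the members with a core, TUBB2A and TUBB4B fell and TUBB and TUBB2B were not called. A match in a window is a description and not a bound site, and whether a match is related to a change was not tested.

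Of 10 further alpha, beta, delta and epsilon tubulin genes in the list, 4 were in the table. TUBE1, the epsilon tubulin of centrioles, fell from 1317 to 1110 normalized counts on average (log2 fold change -0.25, adjusted p = 0.00459). TUBA8 fell (log2 fold change -1.27, SE 0.393, adjusted p = 0.0135) at only 15.7 to 17.4 normalized counts in DMSO and 4.85 to 10.1 in BRL-50481. Delta tubulin TUBD1 (383 to 394 in DMSO, 340 to 356 in BRL-50481, adjusted p = 0.132) and TUBAL3 (4.09 to 27.4 and 18.4 to 27.2, adjusted p = 0.197) were not called. TUBD1 was called without the variance trend, with the length and GC correction and under quantile normalization (adjusted p = 0.0361, 0.0417 and 0.0499, and up to 0.284 over the alternatives), and TUBAL3 was called without DMSO replicate 1 (1.01, adjusted p = 0.0488) and without DMSO replicate 2 (1.31, adjusted p = 0.0306), with up to 0.872 over the alternatives.

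Gamma tubulin and the nucleation machinery seed new microtubules. Of 20 genes, 8 rose, 5 fell and 7 were not called, beside 28.9% higher and 29.8% lower over all genes tested, with a median log2 fold change of 0.09. TUBG1, the gamma tubulin that forms the ring complex, had 4074, 4806 and 4162 normalized counts in DMSO and 2710, 3000 and 2960 in BRL-50481, and fell (log2 fold change -0.59, SE 0.0672, adjusted p = 7.59e-06). Its groups did not overlap. The ring complex genes TUBGCP6 (1.12), TUBGCP5 (0.65) and MZT2A (0.73) rose on the log2 scale, and HAUS3 (-0.63) and HAUS7 (-0.61) of the augmin complex, which branches microtubules, fell. Each complex held calls in the other direction too, such as the ring gene TUBGCP4 (-0.31) and the augmin genes HAUS4 (0.63) and HAUS1 (0.26), which were chosen after their values were seen.

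Of the 14 genes of the CCT chaperonin, which folds tubulin and actin, and of prefoldin, which hands it the unfolded chains, 10 fell, 1 rose and 3 were not called, where 29.8% of all genes tested were called lower and 28.9% higher. The median log2 fold change was -0.40, further from 0 than that of the tubulins. CCT6A had 17415, 17756 and 17843 normalized counts in DMSO and 10742, 10271 and 10465 in BRL-50481 (log2 fold change -0.75, SE 0.0427, adjusted p = 1.88e-08). CCT7 (-0.75) and PFDN2 (-0.82) fell by similar amounts, and CCT5, the most abundant by count, by less (-0.23, adjusted p = 0.000874). The groups of these genes did not overlap. PFDN1 rose (0.24, adjusted p = 0.00443). The tubulin cofactors were divided, with 2 of 7 higher, 3 lower and 2 not called. TBCD, which binds beta tubulin, rose from 1244 ± 30.5 to 2262 ± 80.7 normalized counts (log2 fold change 0.86, adjusted p = 6.11e-08) and TBCE, which binds alpha tubulin, rose by 0.27, whereas TBCA, which takes up beta tubulin from CCT, and TBCC, which drives release of the dimer, fell (log2 fold changes -0.40 and -0.64).

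For autoregulation, TTC5 had 319, 295 and 241 normalized counts in DMSO and 316, 305 and 342 in BRL-50481, and SCAPER 681, 635 and 561 in DMSO and 689, 713 and 660 in BRL-50481. Both genes overlapped between groups and neither was called (log2 fold changes 0.18 and 0.14, adjusted p = 0.183 and 0.165). Without DMSO replicate 1 both were called higher (0.27 and 0.20, adjusted p = 0.0297 and 0.0189, against up to 0.630 and 0.834 over the alternatives). Of the 12 genes in the list with CCR4-NOT, 3 rose, 2 fell and 7 were not called. Over all genes tested, 28.9% were called higher and 29.8% lower. The median log2 fold change of the list was 0.11. CNOT2 (0.26) and CNOT3 (0.24) rose, as did CNOT6 (0.15, adjusted p = 0.0417), whose call was lost when any library but DMSO replicate 1 was left out (adjusted p = 0.0694 to 0.155) and whose value was -0.01 with the length and GC correction. CNOT8, a deadenylase subunit, fell by 0.42 on the log2 scale, and CNOT9, listed as RQCD1, by 0.19, the latter not called without BRL-50481 replicate 3 (adjusted p = 0.0637). CNOT1, the scaffold and the most abundant by count, was at 9833, 7819 and 7838 in DMSO and 9060, 9031 and 9137 in BRL-50481 and was not called (0.10, adjusted p = 0.247). Without DMSO replicate 1 it was called higher (0.21, adjusted p = 2.27e-06), and with the length and GC correction its value was -0.07.

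Of the 20 tubulin-modifying enzymes in the table, 8 rose, 3 fell and 9 were not called, beside 28.9% higher and 29.8% lower over all genes tested, with a median log2 fold change of 0.17. TTL, which puts the terminal tyrosine back on alpha tubulin, was the most abundant by count and had 5083, 4799 and 4834 normalized counts in DMSO and 3594, 3548 and 3469 in BRL-50481. It fell without overlap of the groups (log2 fold change -0.47, SE 0.0482, adjusted p = 2.82e-06). SVBP, the partner of the vasohibins that remove this tyrosine, rose (0.36, adjusted p = 0.00627), as did the polyglutamylase genes TTLL11 (0.66, adjusted p = 0.00151) and TTLL1 (0.29, adjusted p = 0.0398). The vasohibin genes, chosen after their values were seen, were not called by limma (VASH1 0.11, adjusted p = 0.565, and VASH2 0.09, adjusted p = 0.837). The call for TTLL1 was lost without DMSO replicate 3, BRL-50481 replicate 1 or BRL-50481 replicate 3 (adjusted p = 0.0661 to 0.181) and under quantile normalization (adjusted p = 0.151). The deacetylase gene SIRT2 (-0.28) and TTLL12 (-0.24) fell.

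Of 27 genes for proteins that bind, stabilise or sever microtubules, 11 rose, 7 fell and 9 were not called, against 28.9% higher and 29.8% lower over all genes tested, with a median log2 fold change of -0.03. STMN3, of the stathmin family that binds free tubulin dimers, rose from 269, 372 and 343 normalized counts in DMSO to 997, 952 and 1020 in BRL-50481 (log2 fold change 1.60, SE 0.106, adjusted p = 6.83e-08). MAP2 (0.61) and CLIP2 (0.40) rose. MAPT, which encodes tau, fell from 312, 285 and 290 to 118, 149 and 127 (log2 fold change -1.17, SE 0.117, adjusted p = 2.32e-06), and CAMSAP3 (-0.88) and CAMSAP1 (-0.58), which hold microtubule minus ends, fell, whereas CAMSAP2 of the same family, chosen after its value was seen, rose (0.32, adjusted p = 0.00737). MAP1B, the most abundant by count, overlapped between the groups and was not called (-0.03, adjusted p = 0.727), and its sign turned with the scaling and without DMSO replicate 1 (0.06). With the length and GC correction it was called lower (-0.26, adjusted p = 1.95e-07).

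Spindle microtubule-associated proteins organise the mitotic spindle. Of their 10 genes in the list, 9 rose, 0 fell and 1 was not called, where 28.9% of all genes tested were called higher and 29.8% lower. Their median log2 fold change was 0.51. TPX2, which activates Aurora A on spindle microtubules, had 8552, 8504 and 8361 normalized counts in DMSO and 13062, 12640 and 12844 in BRL-50481 (log2 fold change 0.60, SE 0.0426, adjusted p = 1.18e-07). DLGAP5 (1.05), HMMR (0.94) and CKAP2L (0.90) rose further, and no treated library of these 4 genes was within the control range. Whether these differences and those of the tubulins are related was not tested.

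**Figure D4:**
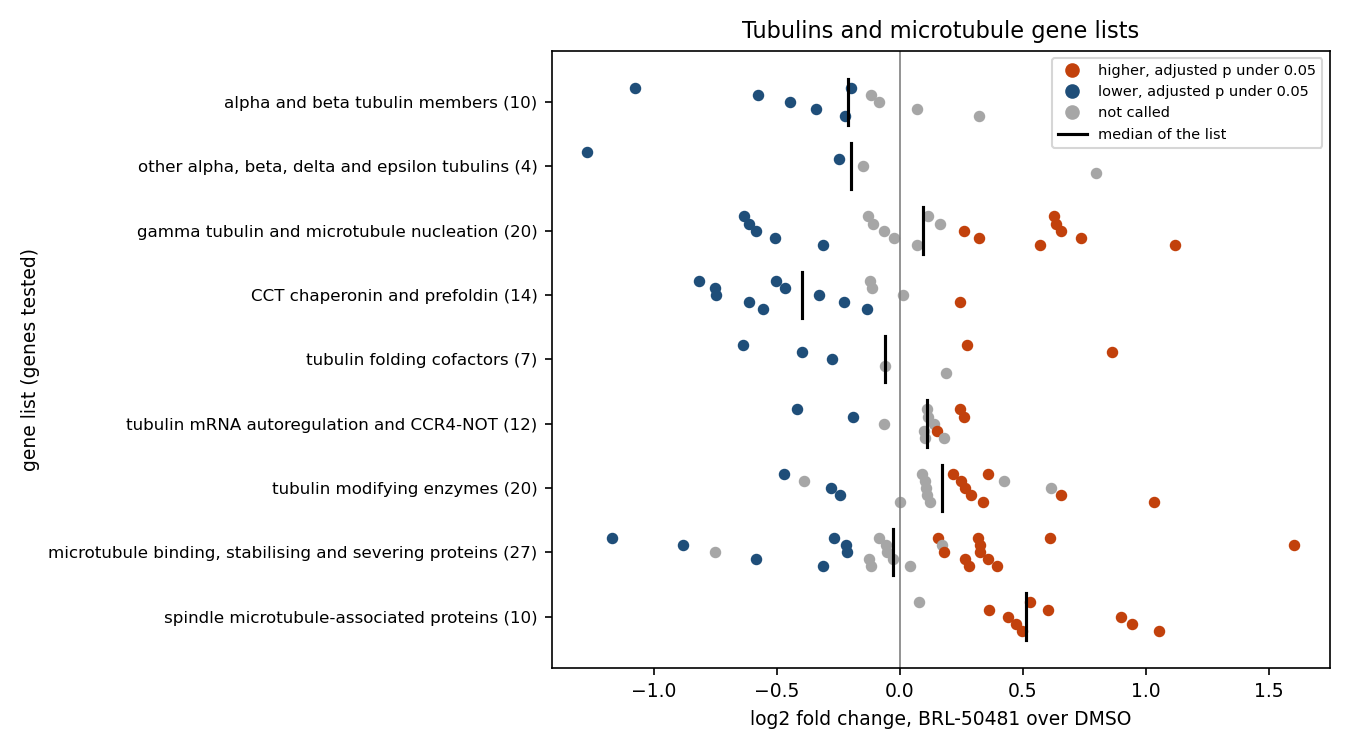
Log2 fold change (BRL-50481 over DMSO) of every tested gene of the tubulins and of 8 microtubule gene lists, with the number of genes tested in brackets, black lines for list medians, and colours for higher, lower and not called. The CCT and prefoldin genes have the lowest median (-0.40) and the spindle genes the highest (0.51), and the other lists hold calls in both directions except the small list of other tubulins.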

How the data were processed

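RNA-seq of 3 DMSO and 3 BRL-50481 libraries was analysed, grouped by the sample labels. According to the Methods and the submitters' processing notes, STAR (2.7.1a) placed the authors' single-end 76-base reads on hg38, htseq-count summed them per gene by strand, and DESeq2 (1.28) scaled the sums. The deposited signal is the count divided by a size factor of its library. By default htseq-count drops reads with several alignments, which lowers genes with close copies. The authors' columns of mean, fold change, standard error, test statistic and p-values hold their own comparison and were not used, and 0 per-sample columns were left unused.

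Genes that reached 4 normalized counts in 3 or more samples were tested across all genes with limma 3.58.1 (R 4.3.3; eBayes with a trend) on log2(normalized count + 1), with Benjamini-Hochberg adjustment and a threshold of 0.05. Fold changes are on that scale, and confidence intervals are 95%. Every value was a whole multiple of the smallest value in its library (tolerance 0.001), but count models were not run. Shares and ratios were compared with exact two-sided permutation tests (scipy 1.17.1), which cannot go below p = 0.1. Transcript lengths, GC content and positions came from GENCODE release 44, matched by symbol (14216 genes) or older RefSeq symbol (887), for 96.5% of genes with both properties. Coding sequences were aligned with Biopython 1.88, and promoters came from RefSeq (GRCh38.p14). The members and lists were chosen with earlier results of these data known. The genes named are all members, PDE7A, TTC5, SCAPER, TUBG1 and the other tubulins, and in each list up to 3 genes per direction with the largest log2 fold change among called genes with a mean of at least 100 and no overlap, plus the most abundant. The last coding bases of the alpha genes are not reported here. The procedure was tested on simulated data. Alternatives were a pseudocount of 0.5 or 4, leaving out the filter, a minimum mean of 20, median centring, quantile normalization, no trend, a replicate block, leaving out each library, and a loess correction (span 0.5) for length and GC content. The script steps used Python 3.11.15, numpy 2.4.6, pandas 2.3.3 and matplotlib 3.10.9.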

Additional observations from a re-analysis of the deposited data

How the results depend on the processing

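TUBA1C, TUBA4A, TUBB2A, TUBB3 and TUBB4B kept their direction and their call, and TUBB2B stayed uncalled, in all 15 alternatives run. Members called lower numbered 6, and 5 to 8 over the alternatives; 1 member was called higher under quantile normalization (TUBB) and 1 with the length and GC correction (TUBB6), where 8 were lower, and leaving out 1 library gave 0 higher and 6 to 8 lower. Signs turned for TUBB (0.16, quantile), CNOT6 (-0.0052) and CNOT1 (-0.070) with the length and GC correction, MAP1B (0.0024 with median centring, 0.071 with quantile normalization, and -0.091 to 0.057 when 1 library was left out) and the log2 ratio of TUBA1C to TUBA1B (-0.0036 without BRL-50481 replicate 2, up to 0.050 without replicate 3), and the cause was not tested. Per kilobase of unique positions, the share differences were -1.16 points for TUBA4A, -0.74 for TUBB2A and 0.037 for TUBB2B, with TUBA1B at 73.3% of alpha tubulin in DMSO; without division by length they were -0.244 for TUBB2A and 0.767 for TUBB6, with TUBA1B at 53.4% and TUBB at 79.4%. Of all calls, 49.2% were higher, 43.3% with the length and GC correction and 53.0% with median centring. With the replicate block 6 members were lower and 0 higher, and of the named genes TTLL1 alone changed its call (adjusted p = 0.0538); replicates with the same number correlated at 0.0514 to 0.121, 5 of the 6 samples correlated best with their own number, and the samples share only that number. The planned count-based tests with edgeR and DESeq2 were not run here. With 3 libraries in a group, small differences such as those of TUBA1A and TUBB are close to the smallest that this spread can show, and TUBB2B is limited by its low counts.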
